A study of Mus musculus with 4 samples.

Results

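The genes described here encode the hexokinases, the pyruvate kinases and the enzymes that make glucose in mouse liver cells: Hk1, Hk2, Hk3, Pklr, Pkm, Pck1, G6pc and Fbp1. Their identifiers are ENSMUSG00000037012 (Hk1), ENSMUSG00000000628 (Hk2), ENSMUSG00000025877 (Hk3), ENSMUSG00000041237 (Pklr), ENSMUSG00000032294 (Pkm), ENSMUSG00000027513 (Pck1), ENSMUSG00000078650 (G6pc) and ENSMUSG00000069805 (Fbp1). They were chosen by gene symbol, and all 8 were found among the 31053 genes of a single-cell RNA-seq count matrix. Each had over 100 UMIs (unique molecular identifiers, each counted as 1 RNA molecule) in the analysed cells, from 756 for Hk3 to 92282 for Fbp1. The study followed hepatocellular carcinoma, a cancer of hepatocytes, in mice whose tumors are induced by a gene that the sources used here do not name. Tumor tissue was dissected at week 4 (HCC-ES), week 8 (HCC-MS) and the last stage (HCC-LS, week 10 in the sample label and week 12 in the series text), and normal liver at week 0 (HCC-NL), 1 sample each. The dissociated cells were treated to lyse red blood cells and run with droplet 3′ chemistry. The deposited matrix pools the 4 samples under barcode suffixes 1 to 4, called libraries 1 to 4 here, and no label pairs a suffix with a sample. No week was therefore assigned to a library, the 4 libraries were not treated as replicates, and no test was made.

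Glycolysis begins when a hexokinase phosphorylates glucose and ends when a pyruvate kinase makes pyruvate. Liver runs the path in both directions: after a meal it breaks glucose down, ending with the liver pyruvate kinase, and in fasting it makes glucose through Pck1, Fbp1 and G6pc and releases it. Adult hepatocytes are known for Pklr, while most other tissues and many tumors use Pkm and the high-affinity hexokinases Hk1 and Hk2. Pklr itself has 2 starts, an upstream one used in red cell precursors and a downstream one used in liver.

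The sequences before these starts are shown because Pklr was high in both erythroid and hepatocyte-like cells, and that of Pck1 because it was the gluconeogenic member with the widest range among hepatocyte-like clusters. RefSeq gave 11 start windows for the 8 genes on build GRCm38.p6, each printed or searched here as the 250 bases before the start. In the lines below capitals mark 3 motifs searched on both strands, which did not overlap there. They were AGATAA, known as the motif bound by GATA factors, and TTACGTCA, a cyclic AMP response element. The other was a carbohydrate response element, searched as CACG and CGTG with 9 bases of any kind between them. In the first window AGATAA begins 35 bases upstream of the start, in the second the carbohydrate response element begins 170 bases upstream, and in the third TTACGTCA begins 93 bases and a reverse-strand AGATAA 169 bases upstream.
Pklr, upstream start, chr3:89135892-89136141, plus strand: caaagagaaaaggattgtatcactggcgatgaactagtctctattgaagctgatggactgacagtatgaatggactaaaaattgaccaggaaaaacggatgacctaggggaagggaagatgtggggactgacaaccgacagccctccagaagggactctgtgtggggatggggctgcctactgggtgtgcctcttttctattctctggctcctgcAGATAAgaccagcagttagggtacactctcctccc
Pklr, downstream start, chr3:89136373-89136622, plus strand: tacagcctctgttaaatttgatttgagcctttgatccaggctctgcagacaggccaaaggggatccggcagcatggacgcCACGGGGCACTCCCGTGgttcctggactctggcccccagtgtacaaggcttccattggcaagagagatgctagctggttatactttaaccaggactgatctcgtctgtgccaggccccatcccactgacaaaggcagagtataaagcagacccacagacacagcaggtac
Pck1, chr2:173152823-173153072, plus strand: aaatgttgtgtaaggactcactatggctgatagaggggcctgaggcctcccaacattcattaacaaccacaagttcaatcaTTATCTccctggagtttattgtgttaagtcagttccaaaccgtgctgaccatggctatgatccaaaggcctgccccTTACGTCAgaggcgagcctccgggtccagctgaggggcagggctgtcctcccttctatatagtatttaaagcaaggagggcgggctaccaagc
Of all 32851 RefSeq windows of this length, 9.99% held AGATAA, 0.219% the carbohydrate response element and 0.448% TTACGTCA. Of the other 8 windows of members, that of Fbp1 held AGATAA, 116 bases upstream, and none held another of the motifs. A match is a description of these letters, not a site shown to be bound. Counting at the 3′ end does not tell the 2 Pklr starts apart, nor the M1 and M2 splice forms of Pkm, so each gene has 1 value.

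After filtering, 34814 cells with 121673850 UMIs were analysed, with a median of 1286 to 3359 UMIs per cell in the 4 libraries. Of 25 clusters 24 could be named from marker genes, which gave 15 classes. Hepatocyte-like cells numbered 20315 (58.4%), in 9 clusters, and 14430 cells were in the other named classes. Both vascular endothelial cell-like clusters (1715 and 175 cells) scored highest for sinusoidal markers and were named by their leading genes. The sinusoidal and vascular classes are therefore not sharply set apart. The 12 hepatocyte markers summed to 34518 CPM in hepatocyte-like cells and 6353 CPM in the other classes (CPM are UMIs per 1000000 UMIs of the group), and each hepatocyte-like cluster had 11 or 12 of them in at least 10% of its cells. The libraries stood apart from each other: hepatocyte-like cells had a median of 1498, 4905, 1341 and 3442.5 UMIs in libraries 1 to 4, and several hepatocyte-like clusters came mostly from 1 library, so a cluster and its library cannot be told apart there. Their median share of mitochondrial UMIs was 0%, 1.02%, 2.52% and 0.713% in libraries 1 to 4, and its part in the results below was not tested. Of 34225 distinct barcode sequences, 585 occurred in 2 or more libraries. Levels are given in CPM with exact 95% intervals that cover counting error only. They count tags per molecule and are not scaled to length, and capture per transcript was not measured, so levels of different genes are set side by side only as tag counts.

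Hepatocyte-like cells had more of the liver-type and gluconeogenic genes, and less of the other isoforms, than the other classes did. At a 2-fold limit, 4 of the 8 genes were higher in hepatocyte-like cells than in the other named classes together (Pklr, Pck1, G6pc and Fbp1) and 4 were lower (Hk1, Hk2, Hk3 and Pkm). Over all 13456 genes measured, 15.8% were that much higher and 37.8% that much lower, and the median log2 ratio was -0.51. The members' direction was the same in libraries 1 to 4 for all 8 genes, although Hk2 in library 2 was lower by less than 2-fold.

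**Figure D1:**
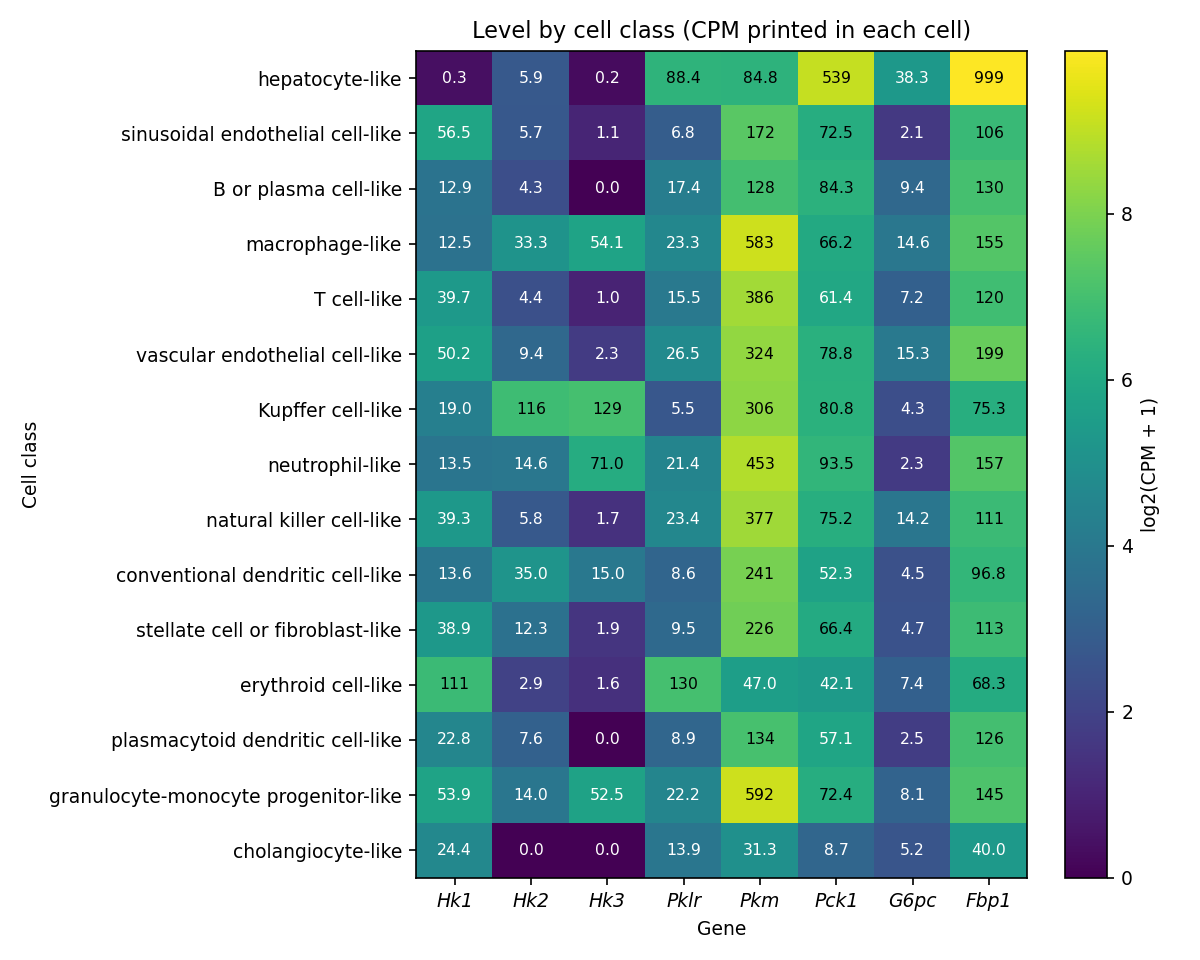
Level of each gene (columns) in each cell class (rows), as CPM printed in the cells and as log2(CPM + 1) in colour, all libraries together. The hepatocyte-like row is brightest at Fbp1 (998.5 CPM) and Pck1 (539 CPM) and darkest at Hk1 and Hk3; erythroid-like cells have the highest Pklr and Kupffer cell-like cells the highest Hk2 and Hk3.

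Among the hexokinases, Hk1, the broadly used form, was close to 0 in hepatocyte-like cells. It had 0.329 CPM there (29 UMIs), against 36.2 CPM in the other classes (1208 UMIs), a log2 ratio of -6.78 (interval -7.36 to -6.25). The 4 libraries gave log2 ratios of -7.84, -6.51, -6.26 and -7.48. Hk1 was highest in erythroid-like cells at 110.8 CPM, clear of the next class by its counting interval. Sinusoidal endothelial cell-like (56.5 CPM), granulocyte-monocyte progenitor-like (53.9 CPM) and vascular endothelial cell-like cells (50.2 CPM) followed, with intervals that overlapped. Hk1 made up 96.1% of hexokinase UMIs (Hk1, Hk2 and Hk3 together) in erythroid-like cells, 89.3% in sinusoidal endothelial cell-like cells and 88.0% in T cell-like cells.

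Hk2, the inducible form known from muscle, fat and many tumors, was the leading member of the 3 in hepatocyte-like cells, with 91.4% of their hexokinase UMIs (521 of 570). Its level was low all the same, 5.91 CPM in hepatocyte-like cells against 18.7 CPM in the other classes (log2 ratio -1.66, interval -1.83 to -1.49). Hepatocyte-like cells had 0.290, 10.4, 1.56 and 4.62 CPM of Hk2 in libraries 1 to 4, so libraries 2 and 4 were above libraries 1 and 3, whose counts were 2 and 26 UMIs. The other classes had 28.5, 13.6, 22.6 and 14.7 CPM in the same libraries. In library 2 the groups were close, at a log2 ratio of -0.39, and against the median of the other classes the pooled log2 ratio was -0.52, short of 2-fold. Hk2 was highest in Kupffer cell-like cells (macrophages that live in the liver) at 116.3 CPM, ranging over the libraries as 152.4, 47.2, 158.7 and 41.8 CPM. Conventional dendritic cell-like (35.0 CPM) and macrophage-like cells (33.3 CPM) came next and overlapped. Hepatocyte-like cells ranked 9 of the 15 classes for Hk2. Natural killer cell-like (5.85 CPM), sinusoidal endothelial cell-like (5.69 CPM) and T cell-like cells (4.43 CPM) were among the classes after them, with overlapping intervals.

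Hk3, a form known from myeloid cells, had 0.227 CPM in hepatocyte-like cells (20 UMIs) against 22.0 CPM in the other classes (log2 ratio -6.60, interval -7.32 to -5.96). Library 1 had 0 Hk3 UMIs in 3690 hepatocyte-like cells. Its levels followed the myeloid classes: 129.2 CPM in Kupffer cell-like, 71.0 CPM in neutrophil-like, 54.1 CPM in macrophage-like and 52.5 CPM in granulocyte-monocyte progenitor-like cells, the last 3 with overlapping intervals. Kupffer cell-like cells held it at 122.6, 120.3, 143.2 and 167.2 CPM in libraries 1 to 4. Hk3 was 71.6% of hexokinase UMIs in neutrophil-like and 54.2% in macrophage-like cells. No Hk3 UMI was counted in B or plasma cell-like cells (upper limit 1.06 CPM), plasmacytoid dendritic cell-like cells (4.68 CPM) or cholangiocyte-like cells (6.42 CPM).

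Pklr, the liver and red cell pyruvate kinase, had 88.4 CPM in hepatocyte-like cells and 25.4 CPM in the other classes (log2 ratio 1.80, interval 1.69 to 1.90). Hepatocyte-like cells had 55.7, 87.6, 42.1 and 121.6 CPM in libraries 1 to 4, against 3.51, 42.3, 5.90 and 33.8 CPM in the other classes. Every library was higher in hepatocyte-like cells, while libraries 2 and 4 had more Pklr than libraries 1 and 3 on both sides. Erythroid-like cells, however, had the highest level of any class, 130.0 CPM (318 UMIs in 323 cells), and hepatocyte-like cells came after them. The next class, vascular endothelial cell-like, had 26.5 CPM.

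Free RNA from broken hepatocytes can enter any droplet, so 8 other hepatocyte transcripts were read in each class as a measure of it. In erythroid-like cells those transcripts had a median of 10.6% of their hepatocyte-like level, while Pklr was at 147.1% of its own. Within library 2 the Pklr value was 155.1% against a median of 14.4%, and within library 4 it was 90.7% against 9.91%. In the 13 other classes Pklr was at 5.51 to 26.5 CPM, or 6.24% to 30.03% of its hepatocyte-like level, beside medians of 7.97% to 28.8% for those transcripts. Those medians also differed by library. In each class read in all 4 libraries they were higher in libraries 2 and 4 than in libraries 1 and 3. In B or plasma cell-like cells they were 9.8%, 35.0%, 8.2% and 37.0% in libraries 1 to 4. The part of free RNA in those 13 values was not tested further.

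Pkm, the pyruvate kinase of most tissues, was lower in hepatocyte-like cells at 84.8 CPM, against 324 CPM in the other classes (log2 ratio -1.94, interval -1.98 to -1.89). It was highest in granulocyte-monocyte progenitor-like (592 CPM) and macrophage-like cells (583 CPM), whose intervals overlapped, then in neutrophil-like (453 CPM), T cell-like (386 CPM) and natural killer cell-like cells (377 CPM). Cholangiocyte-like (31.3 CPM) and erythroid-like cells (47.0 CPM) were the classes below the hepatocyte-like level. The hepatocyte-like value hid a wide spread: 1.59, 184.8, 9.09 and 34.9 CPM in libraries 1 to 4, against 135.0, 503.8, 160.5 and 329.1 CPM in the other classes. The order of the libraries was the same on both sides, and library 2 was highest on both. The log2 ratios were -6.41, -1.45, -4.14 and -3.24.

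**Figure D2:**
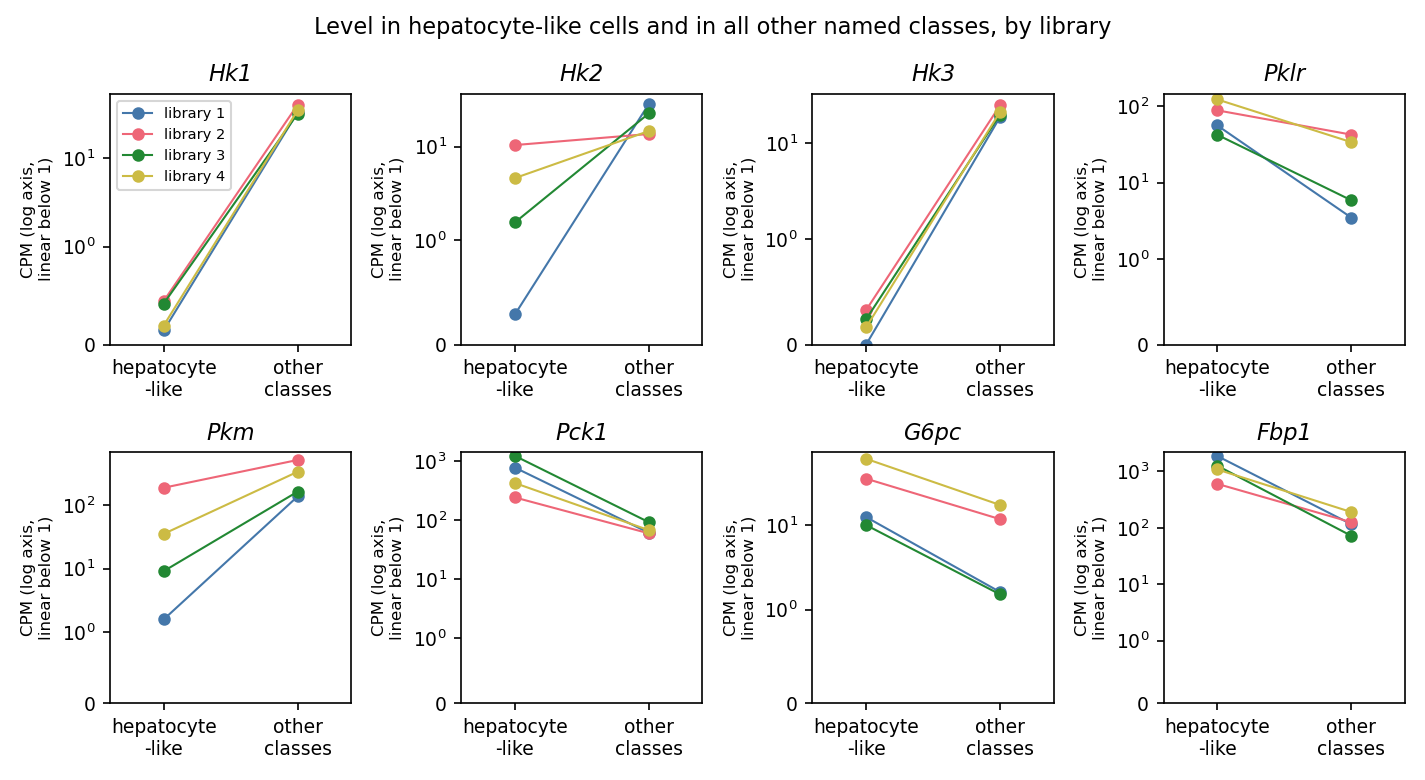
CPM of each gene in hepatocyte-like cells (left) and in all other named classes (right), 1 line per library, on an axis that is logarithmic above 1 and linear below. All lines rise to the right for Hk1, Hk2, Hk3 and Pkm and fall to the right for Pklr, Pck1, G6pc and Fbp1; Pkm in hepatocyte-like cells spreads most, between 1.59 and 184.8 CPM.

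The share of Pklr among the UMIs of both pyruvate kinases needs no scaling to the total of a group, but deeper cells weigh more in it. In hepatocyte-like cells it rose when cells were thinned to 1000 UMIs, as given under the dependence on processing. Pklr made up 51.0% of them in hepatocyte-like cells (7784 of 15258) and 7.27% in the other classes. That pooled share rested on which library was counted: it was 97.2% in library 1 (385 Pklr and 11 Pkm UMIs), 32.2% in library 2 (2958 and 6238), 82.2% in library 3 (704 and 152) and 77.7% in library 4 (3737 and 1073). Without library 2 it was 79.6%, without library 4 it was 38.7%, and with the libraries weighted equally it was 72.3%. Erythroid-like cells had 73.4% Pklr, and the other classes except cholangiocyte-like cells (8 of 26 UMIs) had 1.77% to 12.0%.

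The hepatocyte-like clusters fell into groups by this share. Clusters 5 and 6, led by Elovl3 and Hsd3b5 (genes of mature male liver), had 98.1% and 93.4% Pklr, and most of their cells came from library 1. Cluster 7, led by the acute-phase gene Saa1, had 96.3%, and cluster 16, led by the periportal genes Sds and Hal, had 91.6%; both came nearly all from library 3. Cluster 8, with the pericentral genes Oat and Glul in the lead and mostly of library 4, had 85.3%. Cluster 9, from libraries 2 and 4, had 62.2%. Pkm had the majority of summed UMIs in the Afp-led cluster 3, where Pklr had 25.3%, and in the cycling cluster 24, where Pklr had 31.1%. Counted by cells the 2 genes were closer. In cluster 3 Pklr was seen in 34.8% of cells and Pkm in 31.5%, or 7.30% and 8.70% after thinning to 1000 UMIs. In cluster 24 they were seen in 37.2% and 42.3%. Cluster 17, led by ribosomal and nuclear transcripts, had 67.2%. Cluster 3 also had a median mitochondrial share of 4.59%, against 0% to 2.89% in the other 8 clusters, and the part of that in its values was not tested.

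**Figure D3:**
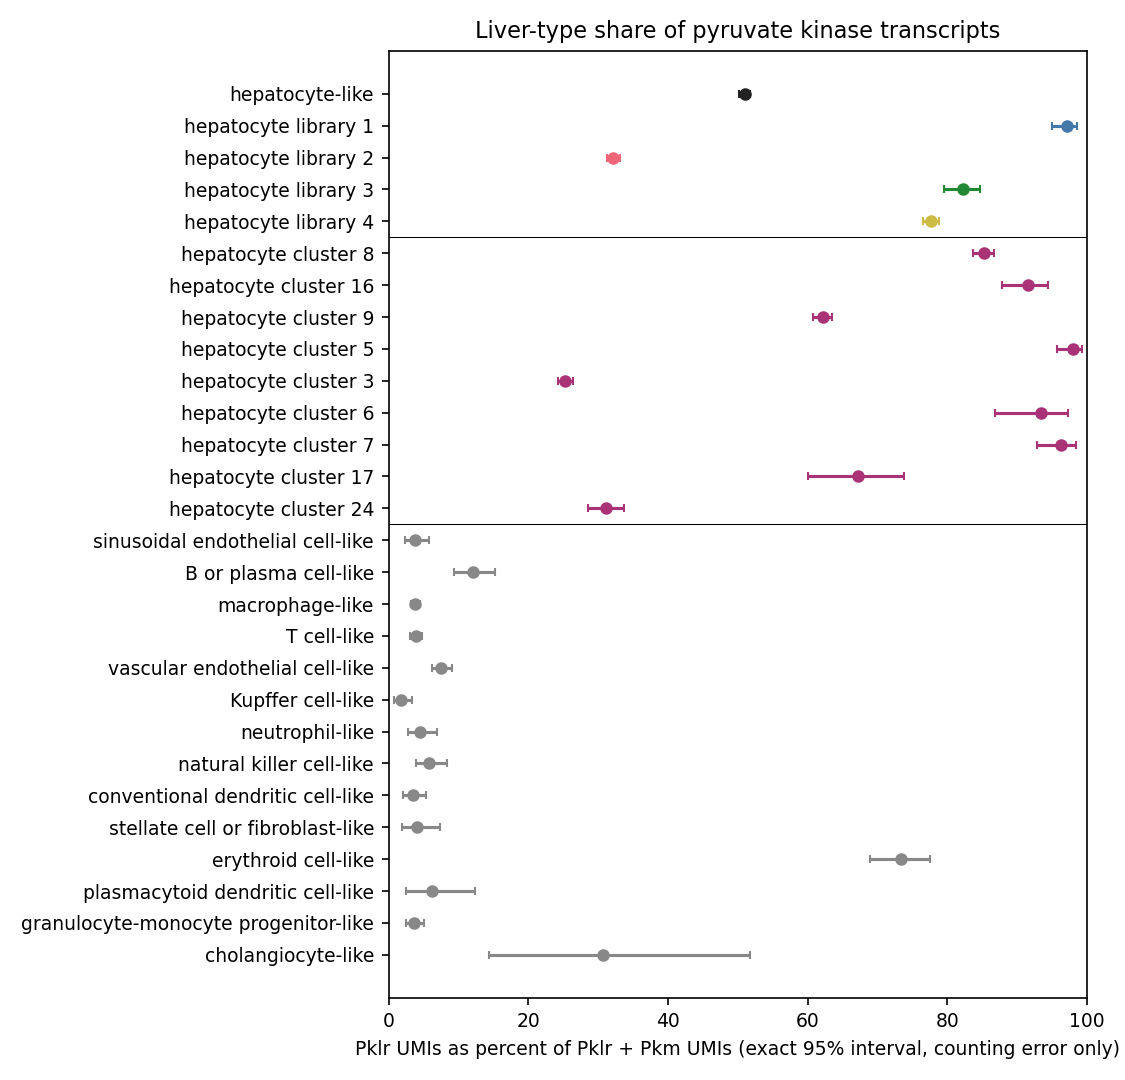
Pklr UMIs as a percent of Pklr plus Pkm UMIs, with exact 95% intervals for counting error, in all hepatocyte-like cells, in each library and cluster of them, and in each other class. Library 1 (97.2%) and library 2 (32.2%) are the extremes among libraries, clusters 5 (98.1%) and 3 (25.3%) among clusters, and erythroid-like cells (73.4%) stand apart from the other non-hepatocyte classes.

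The same cluster did not give the same share in each library. Cluster 3 had 16.7% Pklr in library 2, 53.4% in library 3 and 64.0% in library 4, with Pkm at 267.3, 56.9 and 48.0 CPM. Cluster 9 had 53.3% in library 2 and 81.7% in library 4, with Pkm at 107.6 and 32.1 CPM. Library 2 was thus lowest in Pklr share within both clusters. Between clusters the Pkm level ran from 191.4 CPM in cluster 24 to 1.22 CPM in cluster 7, 156.5-fold, while Pklr ran from 130.0 CPM in cluster 9 to 32.1 CPM in cluster 7, 4.05-fold.

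Macrophage-like cells have much Pkm, so their markers were read in the same cells. Percentages here are of the other class's level over all 4 libraries, not of its level in the same library. Within library 2, Pkm was higher than that in both macrophage-like (709.6 CPM) and neutrophil-like cells (593.4 CPM). Hepatocyte-like cells of library 2 had Pkm at 31.7% of the macrophage-like level over all libraries. The 10 macrophage markers summed to 0.246% of theirs, none of them at 0, and 12 T cell markers to 0.0919% of the T cell-like sum, with Cd6 at 0. In cluster 3 Pkm was at 32.4% and the macrophage markers at 0.232%. Across the 4 libraries the macrophage markers summed to between 15.2 and 50.2 CPM in hepatocyte-like cells, with library 1, the lowest in Pkm, at 50.2 CPM; Gpnmb, Mmp12 and Trem2 were at 0 there. The markers of neutrophils, another class with much Pkm, did move with it: 12 of them summed to 73.5, 205.4, 96.7 and 101.4 CPM in libraries 1 to 4, highest in library 2 like Pkm. They summed to 242.6 CPM in cluster 3 and 334.9 CPM in cluster 24. These were 0.131% (library 2), 0.154% (cluster 3) and 0.213% (cluster 24) of the neutrophil-like sum, while Pkm was at 40.8%, 41.7% and 42.3% of its neutrophil-like level. None of the 12 was at 0 in library 2, Camp was at 0 in cluster 3, and 7 of them, Ly6g and Retnlg included, were at 0 in cluster 24. The sums were not split by gene, and whether hepatocytes make any of the 12 themselves was not tested. The part of neutrophil RNA in these sums is therefore not known. The sums of T cell, B or plasma cell, erythroid and both kinds of endothelial markers were highest in library 1 or 3.

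Both pyruvate kinases were also read in the same cells, each thinned to 5000 UMIs. Of 2193 such hepatocyte-like cells in library 2, 211 had UMIs of both, 497 of Pklr alone, 560 of Pkm alone and 925 of neither. Pkm was seen in 29.8% of the cells with Pklr (26.5% to 33.3%) and 37.7% of those without (35.2% to 40.2%). In library 4, with 2023 cells, the counts were 102, 735, 140 and 1046, and Pkm was seen in 12.2% of the cells with Pklr and 11.8% of those without. In library 1, where 117 cells were deep enough, 1 had a Pkm UMI. A cell with no UMI may still hold the transcript at this depth.

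Pck1, which makes phosphoenolpyruvate and commits carbon to gluconeogenesis, had 539 CPM in hepatocyte-like cells and 67.5 CPM in the other classes (log2 ratio 3.00, interval 2.94 to 3.06). Hepatocyte-like cells had 784, 243.4, 1239 and 428 CPM in libraries 1 to 4, against 61.1, 59.7, 92.4 and 67.7 CPM in the other classes. Libraries 1 and 3 were above libraries 2 and 4 in hepatocyte-like cells, the reverse of their order for Pklr. In all other classes Pck1 was at 1.61% to 17.4% of its hepatocyte-like level.

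Fbp1, which removes a phosphate from fructose bisphosphate, was the member with the most UMIs, at 998.5 CPM in hepatocyte-like cells against 128 CPM in the other classes (log2 ratio 2.96, interval 2.92 to 3.01). Hepatocyte-like cells had 1883, 603, 1268 and 1087 CPM in libraries 1 to 4, against 116, 126, 72.3 and 191 CPM in the other classes. Library 2 was lowest and library 1 highest in hepatocyte-like cells. The other classes held 4.01% to 19.95% of the hepatocyte-like level.

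G6pc, the catalytic subunit that frees glucose in the last step, had 38.3 CPM in hepatocyte-like cells and 8.95 CPM in the other classes (log2 ratio 2.10, interval 1.93 to 2.27). Hepatocyte-like cells had 12.6, 36.0, 10.1 and 61.9 CPM in libraries 1 to 4, against 1.62, 11.9, 1.52 and 17.5 CPM in the other classes. Libraries 2 and 4 were high for G6pc on both sides, unlike for Pck1 and Fbp1. The free RNA measure given above was also higher in libraries 2 and 4, and its part in the values of the other classes was not tested. Over all hepatocyte-like cells the liver-type genes made up most UMIs of their pairs: Pck1 97.4% against the mitochondrial form Pck2, Fbp1 99.7% against the muscle form Fbp2, and G6pc 88.7% against the broadly used form G6pc3. In the other named classes together the shares were 68.9% for Pck1, 99.6% for Fbp1 and 36.0% for G6pc. The Fbp1 share was thus nearly the same on both sides. The Pck1 share ran widely among those classes, with 97.65% in neutrophil-like cells and 19.1% in erythroid-like cells. Some hepatocyte-like cells had lower shares. Pck1 was 52.2% of its pair in the cycling cluster 24 (269 of 515 UMIs), 88.1% in cluster 3 and 91.5% in library 2, and G6pc was 79.03% in cluster 24 and 81.4% in library 2.

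The 3 gluconeogenic genes also differed between hepatocyte-like clusters. Pck1 ran from 1807 CPM in cluster 16 to 57.5 CPM in cluster 24, 31.4-fold, although it was left out of the genes used to cluster. Fbp1 ran from 2170 CPM in cluster 5 to 286.3 CPM in cluster 3. G6pc ran the other way, from 84.2 CPM in cluster 3 to 5.22 CPM in cluster 16. The high G6pc of cluster 3 was 163.3 CPM in library 4, 49.6 CPM in library 2 and 29.9 CPM in library 3.

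The rest of the pathway was read from 53 further genes, of which 50 had at least 100 UMIs over both groups. Of these 28 were at least 2-fold higher in hepatocyte-like cells and 10 at least 2-fold lower, and their median log2 ratio was 1.15, against -0.51 over all genes. Among those with high ratios were Gckr (72.9 against 10.6 CPM) and Fbp2 (3.45 against 0.509 CPM). The lowest were the glucose transporter Slc2a3 (0.318 against 15.6 CPM), Pfkfb4, an enzyme that tunes phosphofructokinase (0.295 against 12.7 CPM), the platelet phosphofructokinase Pfkp (6.41 against 39.8 CPM) and the transporter Slc2a1 (3.20 against 14.4 CPM). In glucose transport 2 of 4 genes were higher and 2 lower; of the genes of pyruvate entry into mitochondria 6 of 7 were higher and 0 lower; of the other gluconeogenic genes 5 were higher and 2 lower.

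Across the 15 classes, the genes whose log2(CPM + 20) was most like a member's, of 10588 compared, were read as a description. For Pklr they were 1300017J02Rik (r = 0.97), Tmem86b (0.94) and Tfr2, a transferrin receptor of hepatocytes and erythroid cells (0.94). For Hk3 they were Igsf6 (0.98), Ccl6 (0.96) and Clec4a2 (0.96), and for Hk2 Treml4 (0.94), Ccl24 (0.93) and Guca1a (0.92). For Pkm they were Orai1 (0.89), Rap1b (0.87) and Vav3 (0.85), and for Hk1 Klf16 (0.89), Pgm1 (0.89) and Vopp1 (0.88). For Fbp1 they were Bhmt (0.99), Gnmt (0.99) and Akr1c6 (0.98), for Pck1 Aox3 (0.96), Bhmt (0.96) and Otc (0.95), and for G6pc Amn (0.98), Gm15883 (0.96) and Apol7a (0.96). The classes share libraries, and their depths differ. Among the members, Pck1 and Fbp1 were most alike (r = 0.94), followed by Hk2 and Hk3 (r = 0.81).

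Liver lobules are zoned: periportal hepatocytes are known for gluconeogenesis and pericentral ones for glycolysis. Hepatocyte-like cells were ordered within each library by an index, log2 of pericentral over periportal marker UMIs with 1 added to each, and split by rank into 3 groups of equal size; the highest (pericentral side) was set against the lowest (periportal side), 6770 cells each. The classes cut this way are ranges, not types: 27.1%, 50.9%, 29.3% and 62.3% of cells in libraries 1 to 4 lay within 0.5 of a boundary. Of the 6 members measured, G6pc was at least 1.5-fold higher on the pericentral side and Hk2, Pkm, Pck1 and Fbp1 at least 1.5-fold lower. Over all 10688 genes, 7.74% were that much higher and 8.93% lower.

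The pooled values mixed libraries that differed in direction. Because cells were ranked within each library, the groups also covered unlike ranges of the index. The periportal side had a median index of -3.81, -0.44, -3.17 and 0.70 in libraries 1 to 4. The pericentral side had 1, 2.22, 1.81 and 2.72. At its median the periportal side of library 4 thus had more pericentral marker UMIs, and opposite signs below do not compare like ranges. Pck1 had 245 CPM on the pericentral side against 1452 CPM on the periportal side in library 1 and 247 against 1934 CPM in library 3, log2 ratios of -2.57 and -2.97. In library 2 it had 336 against 197 CPM (0.77), and in library 4 367 against 376 CPM (-0.03). Fbp1 likewise was lower on the pericentral side in libraries 1, 3 and 4 (-1.24, -2.49 and -0.47) and higher in library 2 (0.77). Pklr had log2 ratios of -0.72, 0.77, 0.29 and 0.42 in libraries 1 to 4, G6pc of -1.58, 0.07, 0.51 and 1.41. Pkm was lower on the pericentral side in library 2 (75.9 against 287 CPM) and higher in library 3 (24.2 against 2.07 CPM), and its pooled log2 ratio of -1.41 became 0.71 without library 2. Hk2 was lower in libraries 2 and 4 (-1.27 and -0.64) and higher in library 3 (2.33), where all hepatocyte-like cells held 26 Hk2 UMIs.

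**Figure D4:**
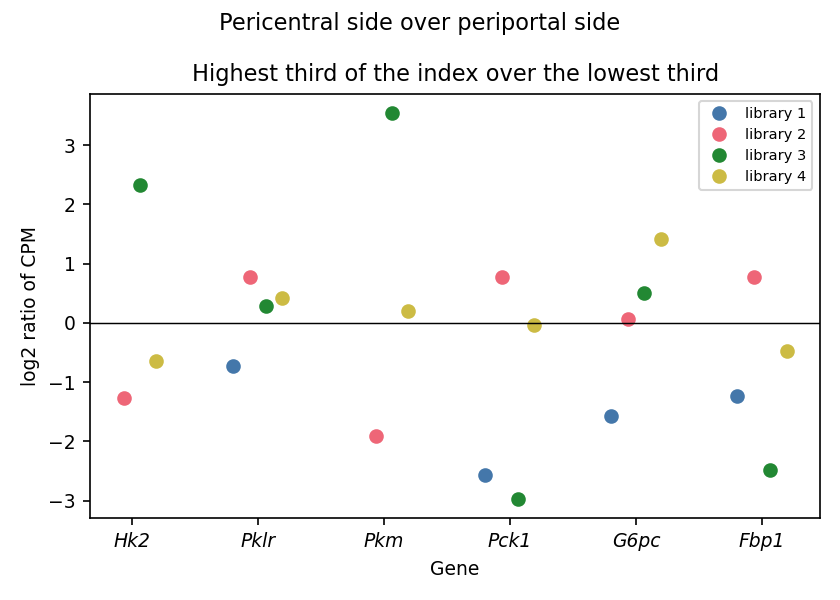
Log2 ratio of CPM on the pericentral side over the periportal side for 6 genes, 1 point per library with at least 20 UMIs of the gene in its hepatocyte-like cells. Pck1 and Fbp1 lie below 0 in libraries 1 and 3 and at 0.77 in library 2; Pkm lies at 3.55 in library 3 and -1.92 in library 2.

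Some pathway genes did keep their direction in 4 of 4 libraries: Ldhb, a lactate dehydrogenase subunit (log2 ratio 1.78), Mlxipl, the carbohydrate response element binding protein (0.74), and Pdha1, of pyruvate dehydrogenase (0.62), all higher on the pericentral side. Pfkfb2 (1.13) was also higher there, with 1 library lacking a ratio. Of the 48 pathway genes measured, 5 were higher and 5 lower, beside 7.74% and 8.93% of all genes.

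Afp, the fetal albumin-like protein of liver tumors, had at least 2 UMIs in 608 hepatocyte-like cells and 0 in 18192. The first were deeper, with a median of 9726 UMIs against 2030, and libraries 2, 3 and 4 held 308, 36 and 264 of them. Of 6 members measured, Pkm and Hk2 were at least 1.5-fold higher in Afp-positive cells, and Pck1 and Fbp1 at least 1.5-fold lower. Over all 10988 genes, 26.3% were that much higher and 9.18% lower, so 2 of 6 higher members are not far from the share of all genes.

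Pkm had 497 CPM in Afp-positive cells against 129 CPM in Afp-negative cells in library 2, 59.5 against 7.26 CPM in library 3 and 90.04 against 28.9 CPM in library 4. The log2 ratios were 1.95, 3.03 and 1.64. Hk2 was higher by 0.94, 1.76 and 0.67 in the same libraries. Pck1 had 113 against 264 CPM, 116 against 1283 CPM and 273 against 451 CPM, and Fbp1 had log2 ratios of -1.004, -2.56 and -0.58. All 4 genes thus went the same way in the 3 libraries. For Hk2 in library 3 this rests on few UMIs, 26 in all its hepatocyte-like cells, of which 36 were Afp-positive cells. Pklr was at 88.5 against 83.5 CPM over all libraries (log2 ratio 0.08), with no common direction among libraries (log2 ratios -0.35, 0.93 and 0.07 in libraries 2 to 4), and G6pc went opposite ways, lower in library 2 (13.8 against 41.7 CPM) and higher in library 3 (33.6 against 9.62 CPM).

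Of the 48 pathway genes measured, 13 were higher and 3 lower in Afp-positive cells, the higher ones a share close to that of all genes (26.3%), and their median log2 ratio was 0.27 against 0.23 over all genes. Fbp2 (13.8 against 2.13 CPM), Ldhb (117 against 22.6 CPM), G6pc3 (11.5 against 4.23 CPM) and Pck2 (29.2 against 12.2 CPM) were higher in 3 of 3 libraries. Pfkm (1.12 against 3.08 CPM) was among those lower.

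Cells with at least 2 UMIs of 10 cycling genes (2443 cells, median 5950 UMIs) were set against those with 0 (15501 cells, median 1870 UMIs). Of 6 members, Pkm and Hk2 were at least 1.5-fold higher in cycling cells and Pck1 and Fbp1 lower. Over all 10944 genes, 38.4% were that much higher and 8.49% lower, so 2 of 6 higher members are not above the share of all genes. The cycling and Afp groups were not made exclusive of each other. The Afp-led cluster 3 held 16295 UMIs of the 10 cycling genes, and the cycling cluster 24 held 10072. How many cells the groups share was not counted. Pkm had 280 CPM in cycling cells against 82.9 CPM in non-cycling cells in library 2, 58.3 against 3.84 CPM in library 3 and 89.7 against 22.5 CPM in library 4. Pck1 had 118 against 381 CPM, 234 against 1384 CPM and 156 against 487 CPM. Hk2 was higher (1.19, 3.65 and 1.27) and Fbp1 lower (-0.88, -1.76 and -0.69) in all 3 libraries, while G6pc differed little (-0.31, -0.11 and -0.25). The library 3 value of Hk2 rests on few UMIs, 26 in all its hepatocyte-like cells. Pfkp (17.2 against 2.01 CPM), Pck2 (35.7 against 5.80 CPM), Fbp2 (7.19 against 1.91 CPM) and Slc2a1 (6.33 against 1.77 CPM) were the pathway genes most above the non-cycling level; Got1, Pfkm and Aldoc were below it, by log2 ratios of -1.15, -1.15 and -0.80.

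**Figure D5:**
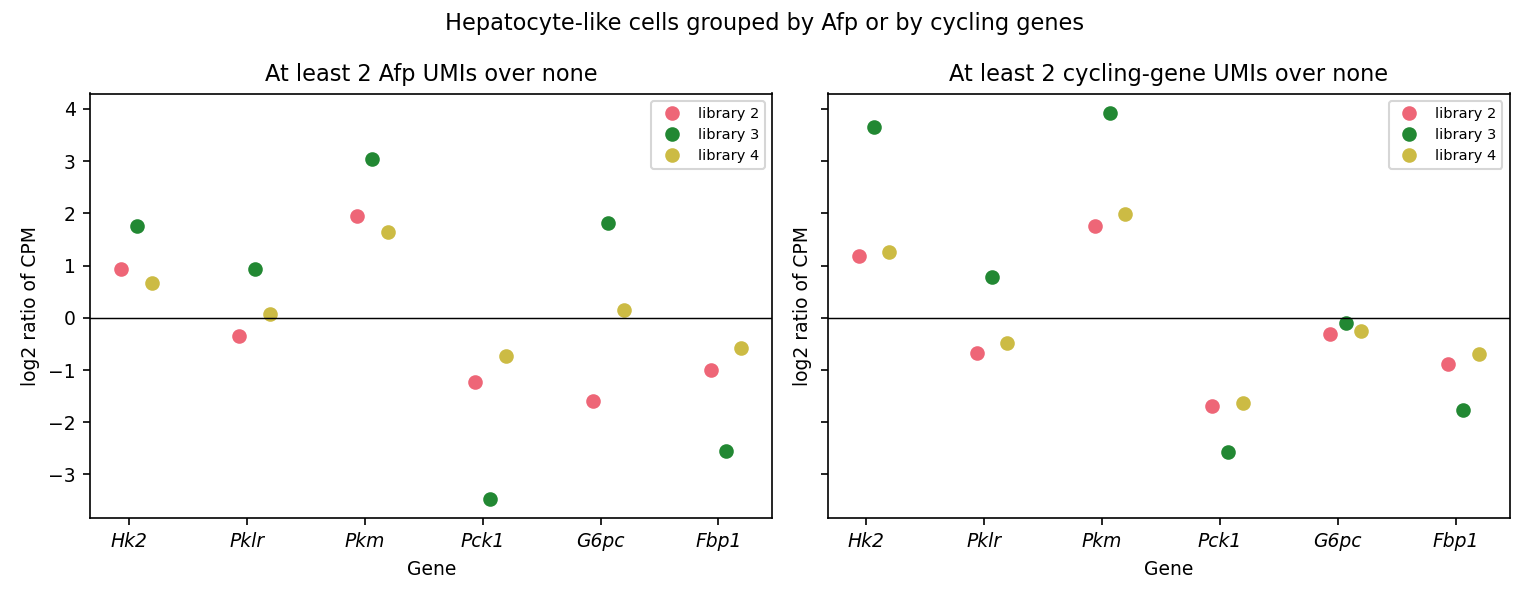
Log2 ratio of CPM for 6 genes in hepatocyte-like cells with at least 2 Afp UMIs over those with none (left) and with at least 2 cycling-gene UMIs over those with none (right), 1 point per library (2, 3 and 4). Pkm and Hk2 lie above 0 and Pck1 and Fbp1 below 0 in every library of both panels. The Hk2 points of library 3 rest on few UMIs (26 in all its hepatocyte-like cells). G6pc spans -1.59 to 1.81 in the Afp panel.

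Cells with serum amyloid UMIs, a mark of the acute-phase response, could be compared best in library 3, which held 4518 of the 4640 such cells. There Pck1 had 1457 CPM in serum amyloid-positive cells against 208 CPM in negative cells, Fbp1 1482 against 320 CPM, Pkm 4.28 against 30.1 CPM and Pklr 37.2 against 66.2 CPM. This split also separates clusters. Serum amyloid was at 3227 CPM in cluster 16 and 13692 CPM in cluster 7. In library 3 those clusters had Pck1 at 1812 and 1304 CPM. Cluster 5 (71 cells) had 1259 CPM there, and the other clusters with at least 20 cells had 29.3 to 264.4 CPM. The part of the clusters in these values was not tested. In libraries 2 and 4, with 48 and 57 positive cells, Pck1 was lower in the positive cells (log2 ratios -0.69 and -0.77). Cells with UMIs of Hsd3b5 and Elovl3 (at least 2 together) numbered 1171, 6, 577 and 16 in libraries 1 to 4, too few to compare in libraries 2 and 4. In libraries 1 and 3 Pck1 (-0.50 and 0.10) and Fbp1 (-0.33 and 0.39) had no common direction there.

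Glul, glutamine synthetase, is known as a mark of the innermost pericentral hepatocytes. Here it was not limited to a small group, with 14631 CPM in cluster 8 (3673 cells) and 8758 CPM in cluster 9 (3327 cells). The cycling cluster 24 had 2573 CPM and cluster 5 had 86.5 CPM. A ranking by Glul therefore also separates clusters, and it is not read as a position in the lobule. With cells ranked by Glul and split the same way, Pklr was higher in the highest group than in the lowest in libraries 1 to 4 by log2 ratios of 0.06, 1.10, 0.54 and 0.67. Pkm was lower in libraries 2 and 4 (-2.15 and -1.17) and higher in library 3 (3.16), and Pck1 was higher in libraries 2 and 4 (1.65 and 1.38) and lower in library 3 (-2.12).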

How the data were processed

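The deposited matrix holds raw UMI counts per gene and cell barcode for 4 pooled 10x Genomics 3′ libraries. Per the file headers the counts came from Cell Ranger 6.0.1; the submitters' processing notes name genome build mm9. How the libraries were joined, and the annotation, are not given in the sources used here. Of the 31053 gene identifiers, 30934 matched a reference name table; member symbols were taken from the deposited gene list. The RefSeq windows are on another build and were used for sequence alone.

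Barcodes with at least 500 UMIs, 200 genes and under 20% mitochondrial UMIs were kept (1838 of 38072 removed for mitochondrial content, 84 for depth), and 1336 (3.70%) were removed as doublets, with a Scrublet score over 0.25. Cells were clustered with scanpy 1.11.5 (2000 variable genes without the members and the 53 pathway genes, 30 components, Leiden resolution 1) and clusters named by marker lists; 69 cells stayed unnamed. B and plasma cells, and both kinds of conventional dendritic cell, did not separate and were merged after the clusters were seen. Counts were summed per group. Levels have exact Poisson intervals, shares exact Clopper-Pearson intervals and ratios conditional binomial intervals (scipy 1.17.1), at 95%; the ratio script was tested on simulated data. With no pairing of suffixes and samples the matrix is 1 sample, so the planned comparison of weeks with normal liver was not made.

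All 8 members are reported. Pathway genes were named if they had at least 100 UMIs, a ratio of at least 2 (1.5 within hepatocyte-like cells) and a direction shared by all libraries that held 20 or more cells on each side, up to 4 each way; some genes that the rule selects are not reported here. The members and lists were chosen with earlier results of these data known. The motifs, the marker readings and same-cell counts in hepatocyte-like cells, the values per cluster and library, and the naming details were chosen after values were seen. Alternatives covered filters, doublets, clustering, thinning, library weights, scaling and leaving out each library. They were run for the class, zonation and Afp comparisons and the Pklr share. The cycling, serum amyloid, Hsd3b5 and Elovl3, and Glul comparisons were not rerun.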

Additional observations from a re-analysis of the deposited data

Results flagged for a closer look

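These results went opposite ways in the 4 libraries, each by at least a set size. None of the differences was tested, and the size limits were chosen after values were seen. The zonation groups were ranked within each library, so their sides covered unlike ranges of the index. On the pericentral over the periportal side of hepatocyte-like cells, Pck1 had log2 ratios of -2.57 in library 1 and -2.97 in library 3, and 0.77 in library 2. Fbp1 had -1.24 in library 1 and -2.49 in library 3, and 0.77 in library 2. Pklr had -0.72 in library 1 and 0.77 in library 2. Pkm had -1.92 in library 2 and 3.55 in library 3, where it was read from few UMIs (152 in all hepatocyte-like cells of that library). In Afp-positive over Afp-negative cells, G6pc had a log2 ratio of -1.59 in library 2 and 1.81 in library 3, which held 36 Afp-positive cells.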

How the results depend on the processing

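In hepatocyte-like cells against the other classes the counts of 4 higher and 4 lower members were the same under each alternative run, except that 3 were lower against the median of the other classes, where Hk2 had a log2 ratio of -0.52. Scaling without the 50 most abundant genes moved the median over all genes by under 0.1. The zonation count of higher members, reported as 1, was 0 with cells thinned to 1000 UMIs, 2 with the index split into 5 groups, and 0 to 2 without 1 library; the count of lower members, reported as 4, was 2 to 4 without 1 library. The zonation log2 ratio of Pkm was -1.69 to 0.71 without 1 library, and its sign turned without library 2. The count of members lower in Afp-positive cells, reported as 2, was 1 with at least 1 Afp UMI. The Pklr share of hepatocyte-like cells, reported as 51.0%, was 68.1% after thinning, 72.3% with libraries weighted equally, and 38.7% to 79.6% without 1 library. The cause of these moves was not tested. Of the single-gene ratios 217 stayed within the counting interval of the reported value, 114 moved beyond it and 1 past its fold limit, that of Pkm above, changed sign. Ratios short of their limit, or of genes with too few UMIs, also crossed 0: zonation Hk1 (0.33, down to -0.13), zonation Hk3 (-0.67, up to 0.46), Afp Pklr (0.08, down to -0.11) and Afp G6pc (-0.15, up to 0.84). The scaling alternative and the one without cluster 17 were added after the data were seen. No paired analysis was possible because each stage has 1 sample and no barcode suffix is paired with a sample. Intervals cover counting error only, and Hk1 and Hk3 in hepatocyte-like cells rest on 29 and 20 UMIs.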

Other observations

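Other genes of glucose handling also differed between the hepatocyte-like cells of the 4 libraries; the genes named here were chosen after their values were seen. The liver glucose transporter Slc2a2 had 7.24, 95.9, 14.6 and 61.9 CPM in libraries 1 to 4, and Slc37a4, which carries glucose 6-phosphate to the G6pc enzyme, had 6.37, 70.03, 10.2 and 28.9 CPM. The lactate dehydrogenase subunit Ldhb had 2.17, 43.1, 4.84 and 49.1 CPM, and the mitochondrial carboxykinase Pck2 had 1.01, 22.6, 3.59 and 14.8 CPM. All 4 were higher in libraries 2 and 4 than in libraries 1 and 3. Gapdh, a shared step, was highest in library 1 at 2679 CPM, against 1145, 1269 and 1101 CPM in libraries 2 to 4. Libraries 2 and 4 also had the deeper hepatocyte-like cells, and the part of depth in these values was not tested.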
